A study of Mus musculus with 12 samples.

Results

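A set of 10 imprinted genes that act on embryonic growth were followed across all 12 libraries of the series: Dlk1, Meg3, Igf2, H19, Peg3, Cdkn1c, Grb10, Mest, Plagl1 and Ndn. They were taken by gene name from both deposited tables of differential expression, and the list was drawn up because Dlk1 moved in opposite directions in the 2 comparisons of the study. The 10 genes are 10 of the 20844 genes listed in both tables, and 10 of 10 passed the filter on low counts in each comparison. The set was thus chosen by the measured log2 ratios of Dlk1 in both comparisons, and these are given below as a description without a test.

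The cells were mouse embryonic fibroblasts, connective tissue cells put into culture from embryos at embryonic day 13.5 to 14.5. One set of cultures was homozygous for LSL-Nrf2D29H, a silenced allele of Nfe2l2, the gene of the transcription factor NRF2, which Cre recombinase turns on with the D29H change. The other was homozygous for CA-Keap1R554Q, an allele of KEAP1, the adaptor that marks NRF2 for degradation, which acts as wild type until Cre switches it to R554Q. Cells of each kind received adenoviral Cre or empty adenovirus at a multiplicity of infection of 500, and RNA was collected 4 days later. The 4 groups of 3 libraries were thus Nrf2 D29H (Cre virus), Nrf2 labelled knockout (empty virus), Keap1 R554Q (Cre virus) and Keap1 wild type (empty virus). The medium of all groups was DMEM free of pyruvate, with 10% FBS, and all carried an adenovirus. Cre was never given to wild-type cells, so effects of Cre and of the mutant allele cannot be told apart. The labels do not say whether replicates came from separate embryos or cultures, so p-values measure the spread between these libraries, which may be technical.

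Imprinted genes are expressed mainly from the copy inherited from one parent, a state set by DNA methylation in the germ line and kept through cell division. Many lie in clusters in which a paternally expressed protein gene sits beside a maternally expressed non-coding RNA, and both answer to a shared control region. As a broad rule, paternally expressed members such as Igf2 and Dlk1 promote or accompany fetal growth, and maternally expressed members such as Cdkn1c and Grb10 restrain it. Their RNA is abundant in fetal mesenchyme and falls in most tissues after birth. Gene counts do not separate the parental copies, so imprinting itself was not measured here.

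Depth ran from 14963004 counted reads in labelled-knockout replicate 3 to 23818477, and the other libraries had at least 19661193. Nfe2l2 had 40.1 to 46.5 CPM (counts per library scaled to a common total, jointly over the 12 libraries) in the libraries labelled knockout and 49.6 to 57.1 CPM in D29H, so reads of the silenced gene were present and that group is called labelled knockout throughout. Nqo1, a target of NRF2, went from 8.82 ± 1.73 CPM with empty virus to 119 ± 13.1 with Cre in the Nrf2 cultures, and from 33.1 ± 0.246 to 351 ± 39.7 in the Keap1 cultures (SD, n = 3 each). Fibroblast markers summed to 14589 to 20719 CPM with 8 of 8 listed. Epithelial and fetal liver markers summed to under 1 CPM in every library. D29H replicate 1 stood apart from the other D29H libraries in several genes below. Between D29H and labelled knockout 2192 genes were called without it and 682 with it. Without D29H replicate 2 or 3 the counts were 94 and 82. Between R554Q and Keap1 wild type 2875 genes were called without R554Q replicate 3 and 872 with it. Without R554Q replicate 1 or 2 the counts were 238 and 410.

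Levels differed widely among the 10 genes when compared per length, in FPKM (fragments scaled by gene length and library total). H19 was highest at a mean of 428 FPKM over the 12 libraries (range 358 to 488), followed by Igf2 at 253 (221 to 277) and Ndn at 94.4 (73.2 to 107). Grb10 at 80.3 (67.9 to 94.0) and Meg3 at 45.1 (31.2 to 77.0) came next. Cdkn1c was at 29.4 FPKM (19.3 to 35.5), Dlk1 at 13.2 (9.20 to 18.1), Peg3 at 12.7 (10.7 to 16.7), Plagl1 at 7.15 (5.63 to 8.67) and Mest at 5.58 (3.23 to 7.90). Neighbours in this order whose ranges did not overlap were H19 and Igf2, Igf2 and Ndn, Cdkn1c and Dlk1, and Peg3 and Plagl1. The other neighbours overlapped. Both genes of the Igf2 and H19 pair were thus above every other gene of the list in these fibroblasts.

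**Figure D1:**
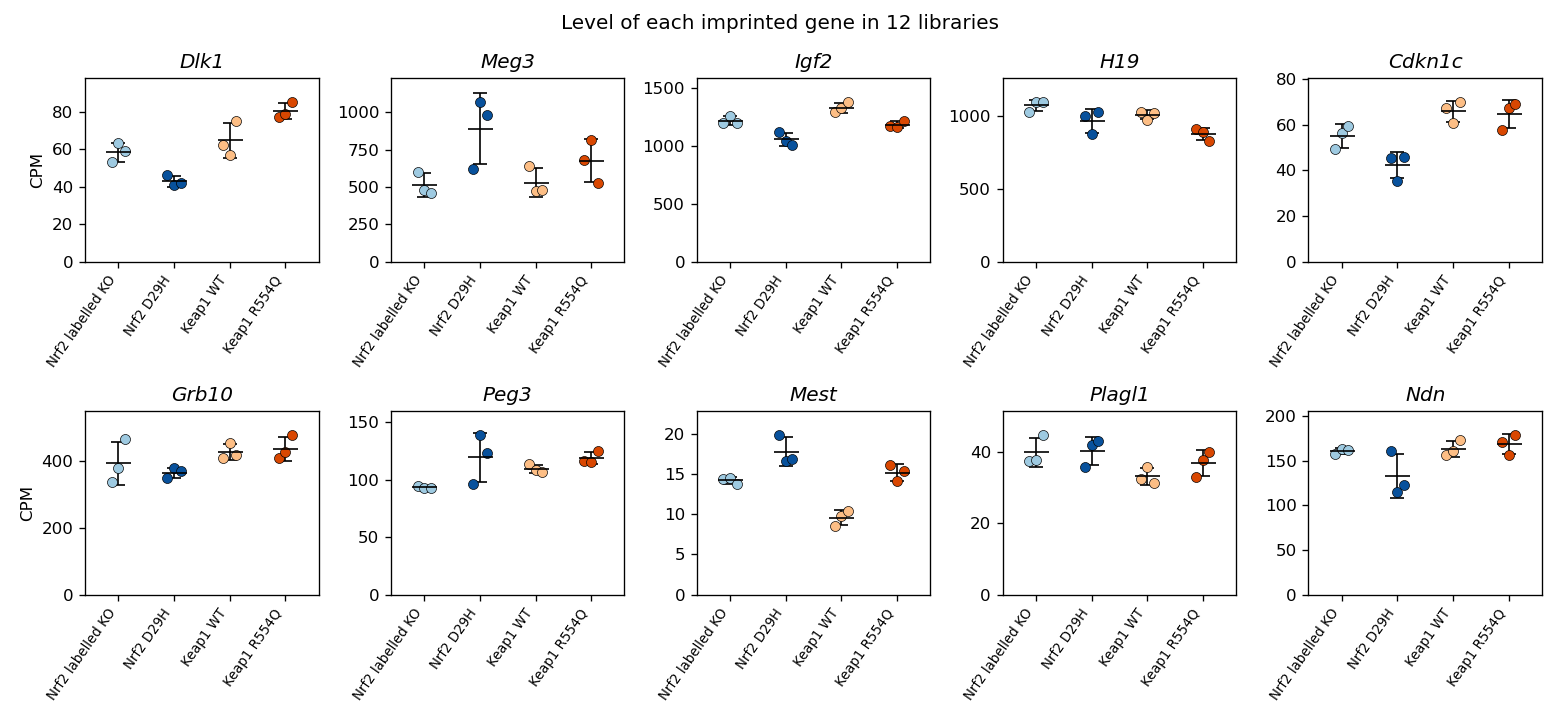
Level of each of the 10 imprinted genes in CPM (vertical axis, linear, from 0) in the 4 groups, 1 panel per gene; points are libraries and bars show the mean ± SD of 3. Dlk1 is lower in D29H than in labelled knockout and higher in R554Q than in Keap1 wild type, while Mest is higher with Cre virus in both cultures.

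Dlk1 (ENSMUSG00000040856; GRCm38 chromosome 12, 109452823 to 109463336, plus strand) encodes a transmembrane protein with EGF-like repeats, related to the ligands of Notch receptors, that holds back adipocyte differentiation. Meg3 (ENSMUSG00000021268; chromosome 12, 109541001 to 109571726, plus strand) is the maternally expressed long non-coding RNA of the same imprinted domain, and the starts of the genes lie 88.2 kb apart. The 250 bases before each start in RefSeq (GRCm38.p6, plus strand, 5′ to 3′) are shown because Dlk1 and Meg3 are the pair whose values moved apart most in D29H. They cover chr12:109452573-109452822 for Dlk1 and chr12:109540746-109540995 for Meg3, with motif matches in capitals:
Dlk1: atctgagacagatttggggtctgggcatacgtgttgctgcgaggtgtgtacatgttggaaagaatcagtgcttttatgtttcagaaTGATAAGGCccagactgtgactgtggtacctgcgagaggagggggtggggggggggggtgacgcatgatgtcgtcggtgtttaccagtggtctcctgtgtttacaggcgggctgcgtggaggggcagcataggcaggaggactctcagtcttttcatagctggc
Meg3: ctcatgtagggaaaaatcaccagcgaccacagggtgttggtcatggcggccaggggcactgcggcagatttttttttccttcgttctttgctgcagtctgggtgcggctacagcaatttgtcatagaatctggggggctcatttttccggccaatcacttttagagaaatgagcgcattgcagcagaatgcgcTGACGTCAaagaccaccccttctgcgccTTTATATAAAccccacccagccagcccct
The capitals in Dlk1 mark a match to TGANNNNGC, a short form of the antioxidant response element to which NRF2 binds, at 164 to 156 bases before the start. Such a match stood in 35.2% of 32851 RefSeq windows of this length, searched on both strands, and among the 8 genes with a window it was also in those of Ndn and Plagl1. The longer core TGACNNNGC, whose matches are all matches of the shorter form too, was in 10.2% of windows and in 0 of the 15 windows of the list's genes. The capitals in Meg3 mark a cAMP response element, TGACGTCA, at 57 to 50 bases before the start, and matches to TATAAA on each strand at 29 to 20 bases before it. TGACGTCA was in 1.55% of windows, and also in Peg3, and TATAAA was in 12.4%, among these genes in Meg3 alone. These matches are letters in a window and do not show binding. RefSeq windows of H19 and Cdkn1c were not used here.

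Dlk1 was at 46.4, 40.8 and 42.0 CPM in the D29H libraries and at 53.2, 63.4 and 59.1 CPM in labelled knockout. Every D29H library was below every labelled-knockout library, with means of 43.0 ± 2.93 and 58.6 ± 5.14 CPM (SD, n = 3 each) and a log2 ratio of -0.45 (SE 0.10). In the Keap1 cultures it was at 77.4, 79.2 and 85.3 CPM in R554Q and at 62.4, 57.2 and 75.3 CPM in wild type. Here every Cre library was above every empty-virus library, though R554Q replicate 1 and wild-type replicate 3 lay close together. The means were 80.6 ± 4.11 and 65.0 ± 9.32 CPM, a log2 ratio of 0.32 (SE 0.09). The D29H effect minus the R554Q effect was -0.76 on the log2 scale (SE 0.14). The authors' deposited table gives log2 ratios of -0.41 and 0.28 for Dlk1. In order of level the groups ran D29H, labelled knockout, Keap1 wild type and R554Q. Labelled knockout (53.2 to 63.4 CPM) and Keap1 wild type (57.2 to 75.3 CPM) overlapped, and the other neighbours in that order did not.

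Meg3 moved the other way from Dlk1 in the Nrf2 cultures. It was at 620, 1068 and 984 CPM in D29H and at 603, 478 and 458 CPM in labelled knockout. D29H replicate 1 was the low library of its group and barely above labelled-knockout replicate 1. Means were 513 ± 78.6 CPM in labelled knockout and 891 ± 238 CPM in D29H, and Meg3 rose by a log2 ratio of 0.79 (SE 0.16 and edgeR-adjusted p 0.00551, from the quasi-likelihood test with Benjamini-Hochberg adjustment over all genes). Without D29H replicate 2 it was 0.65 (adjusted p 0.0781) and without D29H replicate 3 it was 0.72 (adjusted p 0.0869), neither past the threshold of 0.05. With a correction for GC content and length it was 0.49 (adjusted p 0.0466). In the Keap1 cultures Meg3 was at 684, 816 and 527 CPM in R554Q and at 639, 471 and 478 CPM in wild type, so the groups overlapped. Its log2 ratio there was 0.36 (SE 0.13) with an adjusted p of 0.111 in edgeR. It was 0.20 (adjusted p 0.432) without R554Q replicate 2, and it passed the threshold without R554Q replicate 3 (0.51, adjusted p 8.5e-05) and without wild-type replicate 1 (0.51, adjusted p 0.0466).

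The ratio of Meg3 to Dlk1 in FPKM was 4.28, 8.37 and 7.49 in the D29H libraries, a mean of 6.71 ± 2.15. It averaged 2.84 ± 0.683 in labelled knockout, 2.64 ± 0.621 in Keap1 wild type and 2.70 ± 0.669 in R554Q (SD, n = 3 each). Every D29H library had a higher ratio than any other library; since Dlk1 enters the ratio, it is a description. Among the other genes of the domain, Rtl1, a paternally expressed gene derived from a retrotransposon, was at 3.25, 5.52 and 5.51 CPM in D29H and at 3.39, 2.39 and 2.55 CPM in labelled knockout. D29H replicate 1 fell inside the labelled-knockout range, as it nearly did for Meg3. Rtl1 rose by a log2 ratio of 0.77 (SE 0.22 and edgeR-adjusted p 0.0432). Reads of Rtl1 and of its known antisense transcript could not be told apart, since use of strand is not stated. Mirg, a maternally expressed microRNA host RNA, was at 30.8, 36.9 and 33.9 CPM in D29H and at 26.2, 25.1 and 20.8 CPM in labelled knockout, and rose by 0.49 (SE 0.11 and edgeR-adjusted p 0.0147). Rian, a maternally expressed host of small nucleolar RNAs, did not pass the test there (0.24, SE 0.12 and edgeR-adjusted p 0.22), nor did Dio3, the thyroid hormone deiodinase at the far end (-0.02, SE 0.18 and edgeR-adjusted p 0.957). Calls of Rtl1 and Mirg were lost without D29H replicate 2 or replicate 3, and that of Rtl1 also without labelled-knockout replicate 2 or 3, with limma and with the correction for GC content and length. In the Keap1 comparison the log2 ratios of the same genes were 0.35 for Rtl1, 0.05 for Mirg, -0.19 for Rian and -0.44 for Dio3, with adjusted p of 0.356, 0.813, 0.171 and 0.206 in edgeR.

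**Figure D2:**
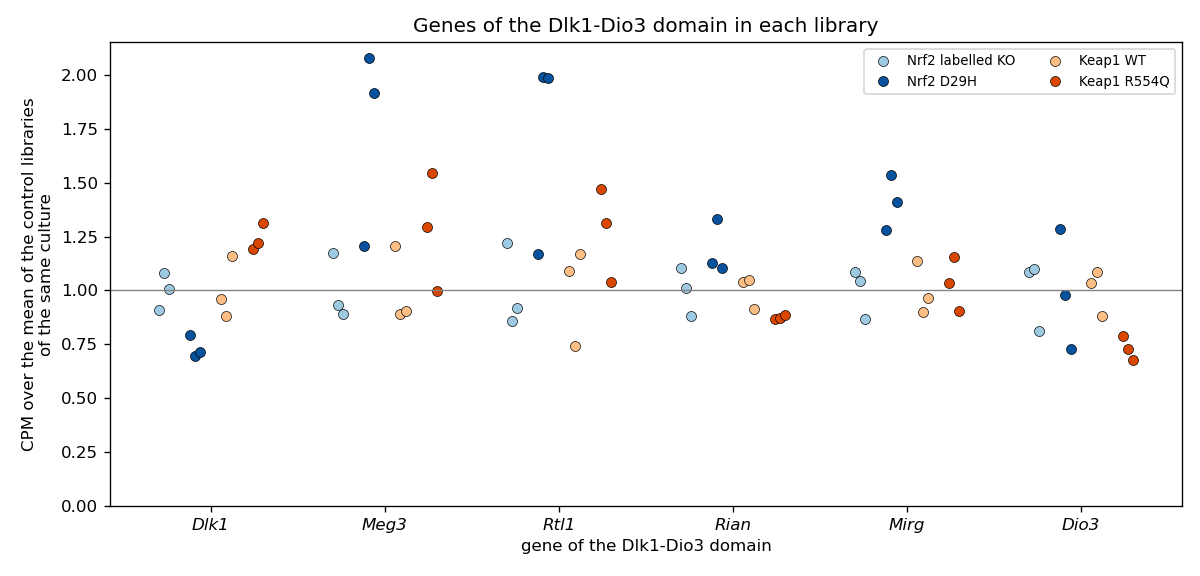
Level of Dlk1, Meg3, Rtl1, Rian, Mirg and Dio3 in each library relative to the empty-virus mean of the same culture (vertical axis, ratio of CPM); points are libraries. In D29H Meg3, Rtl1, Rian and Mirg lie above the empty-virus mean and Dlk1 below it, while in R554Q Dlk1 lies above it.

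Igf2 (ENSMUSG00000048583; chromosome 7, 142650766 to 142666816, minus strand) encodes insulin-like growth factor 2, the main fetal growth factor of the list. H19 (ENSMUSG00000000031; chromosome 7, 142575529 to 142578143, minus strand) is the maternally expressed non-coding RNA beside it, and the pair shares enhancers and a control region. Igf2 was at 1123, 1042 and 1006 CPM in D29H and at 1201, 1263 and 1196 CPM in labelled knockout. Every D29H library was the lower, but the log2 ratio of -0.21 (SE 0.12) did not pass the test (adjusted p 0.29 in edgeR). In the Keap1 cultures Igf2 was at 1172, 1165 and 1219.7 CPM in R554Q and at 1289.9, 1328 and 1378 CPM in wild type. The groups were again apart, with a log2 ratio of -0.16 (SE 0.08 and edgeR-adjusted p 0.236). Igf2os, on the opposite strand, held 0.58% as many reads as Igf2.

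H19 was at 995, 873 and 1027 CPM in D29H and at 1028, 1091 and 1091 CPM in labelled knockout, a log2 ratio of -0.15 (SE 0.12 and edgeR-adjusted p 0.462). In R554Q it was at 906, 888 and 826 CPM and in Keap1 wild type at 1025, 969 and 1020.0 CPM, a log2 ratio of -0.20 (SE 0.08 and edgeR-adjusted p 0.149). Both genes of the pair thus had the lower level in the Cre libraries of both cultures, with no overlap between groups and no call, though D29H replicate 3 and labelled-knockout replicate 1 were almost level for H19. With a correction for GC content and length, Igf2 (-0.31, adjusted p 0.0182) and H19 (-0.28, adjusted p 0.0187) passed the threshold in edgeR in the Keap1 comparison. The ratio of H19 to Igf2 in FPKM was 1.81 ± 0.064 with empty and 1.89 ± 0.197 with Cre virus in the Nrf2 cultures, and 1.56 ± 0.072 and 1.52 ± 0.108 in the Keap1 cultures (SD, n = 3 each).

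Of the genes that restrain growth, Cdkn1c (ENSMUSG00000037664; chromosome 7, 143458350 to 143461050, minus strand) encodes p57, an inhibitor of cyclin-dependent kinases. It was at 45.5, 35.5 and 46.0 CPM in D29H and at 49.4, 56.2 and 59.6 CPM in labelled knockout. All D29H libraries were lower, and Cdkn1c fell by 0.38 on the log2 scale (SE 0.11), with an adjusted p of 0.0483 in edgeR, just past the threshold. The call was lost in 7 of 16 alternatives, among them without D29H replicate 2 (-0.26, adjusted p 0.312), D29H replicate 3 (-0.44, adjusted p 0.143), labelled-knockout replicate 2 (-0.37, adjusted p 0.136) and labelled-knockout replicate 3 (-0.31, adjusted p 0.0972). In the Keap1 cultures it was at 57.8, 67.4 and 69.3 CPM in R554Q and at 67.2, 60.9 and 69.8 CPM in wild type, and the groups overlapped (log2 ratio -0.02, SE 0.09 and edgeR-adjusted p 0.928).

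Grb10 (ENSMUSG00000020176; chromosome 11, 11930508 to 12038683, minus strand) encodes an adaptor that damps signalling from the insulin and IGF1 receptors. It was at 349.7, 379 and 369.6 CPM in D29H and at 339, 379 and 465 CPM in labelled knockout, with labelled-knockout replicate 3, the shallowest library, at the top. The R554Q libraries had 409, 426 and 478 CPM and Keap1 wild type 411, 456 and 417 CPM. Groups overlapped in both cultures, and the log2 ratios were -0.11 (SE 0.12 and edgeR-adjusted p 0.617) and 0.04 (SE 0.09 and edgeR-adjusted p 0.826).

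Mest (ENSMUSG00000051855; chromosome 6, 30723547 to 30748455, plus strand), a paternally expressed gene for a membrane protein of the hydrolase fold family, was higher in R554Q than in Keap1 wild type under every alternative run. It was at 16.1, 14.1 and 15.4 CPM in R554Q and at 8.53, 9.72 and 10.4 CPM in Keap1 wild type. Every R554Q library was above every wild-type library, and Mest rose by a log2 ratio of 0.68 (SE 0.12 and edgeR-adjusted p 0.00256). Over 15 alternatives this ran from 0.60 to 0.74 and the adjusted p from 1.5e-05 to 0.0317, so the call held in 15 of 15. In the Nrf2 cultures Mest was at 19.8, 16.6 and 16.9 CPM in D29H and at 14.4, 14.5 and 13.7 CPM in labelled knockout. The groups were apart in the same direction, but the log2 ratio of 0.32 (SE 0.12) did not pass the test (adjusted p 0.112 in edgeR). Copg2, a gene on the opposite strand that overlaps Mest, held 165% as many reads as Mest. Its log2 ratios were -0.33 (adjusted p 0.109) and -0.04 (adjusted p 0.87 in edgeR) in the Nrf2 and Keap1 comparisons, neither called. Use of strand is not stated, so reads where the genes overlap could not be told apart. The part of Copg2 reads in the Mest values was not tested.

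Peg3 (ENSMUSG00000002265; chromosome 7, 6703892 to 6730421, minus strand), Plagl1 (ENSMUSG00000019817; chromosome 10, 13090691 to 13131694, plus strand) and Ndn (ENSMUSG00000033585; chromosome 7, 62348277 to 62349928, plus strand) are paternally expressed. Peg3 and Plagl1 encode zinc finger proteins, and Ndn encodes necdin, a MAGE family protein tied to growth arrest in neurons. Peg3 was at 95.9, 139 and 124 CPM in D29H and at 94.8, 92.6 and 92.8 CPM in labelled knockout. D29H replicate 1 was within 2 CPM of labelled-knockout replicate 1, and the log2 ratio was 0.35 (SE 0.11 and edgeR-adjusted p 0.0714), short of the threshold. Peg3 was called without D29H replicate 1 (0.48, adjusted p 0.00456), when genes with few reads were kept in (0.34, adjusted p 0.0404) and in 1 fit of 12 libraries (0.35, adjusted p 0.0443). In the Keap1 cultures Peg3 was at 116, 115 and 125 CPM in R554Q and at 113, 109 and 107 CPM in wild type, a log2 ratio of 0.12 (SE 0.08 and edgeR-adjusted p 0.346).

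Ndn was at 161, 115 and 123 CPM in D29H and at 157, 163 and 162 CPM in labelled knockout. D29H replicate 1 lay within the labelled-knockout range and the other D29H libraries below it, so the log2 ratio of -0.27 (SE 0.12 and edgeR-adjusted p 0.157) was not called. It was -0.44 (adjusted p 0.00831) without D29H replicate 1 and -0.17 (adjusted p 0.545) without D29H replicate 2. In R554Q Ndn was at 171, 156 and 178 CPM and in Keap1 wild type at 156, 160.5 and 173 CPM, with a log2 ratio of 0.05 (SE 0.08 and edgeR-adjusted p 0.732). Plagl1 was at 35.7, 41.8 and 43.0 CPM in D29H and at 37.3, 37.7 and 44.6 CPM in labelled knockout, and at 33.0, 37.7 and 39.9 CPM in R554Q and 32.3, 35.8 and 31.2 CPM in Keap1 wild type. Groups of Plagl1 overlapped in both cultures, with log2 ratios of 0.01 (SE 0.11 and edgeR-adjusted p 0.961) and 0.16 (SE 0.10 and edgeR-adjusted p 0.316).

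Counted together, 2 of the 9 genes other than Dlk1 were called between D29H and labelled knockout (Meg3 higher, Cdkn1c lower), where 4.75% of all 14370 genes tested were called (3.47% higher and 1.28% lower). In the Keap1 comparison 1 of 9 was called (Mest, higher), against 6.17% of 14128 genes (3.77% higher and 2.40% lower). Groups did not overlap for 6 of 9 genes in the Nrf2 comparison (Meg3, Peg3 and Mest higher, Igf2, H19 and Cdkn1c lower), where this held for 25.6% of all genes (12.7% higher and 12.9% lower). They did not overlap for 4 of 9 in the Keap1 comparison (Peg3 and Mest higher, Igf2 and H19 lower), against 27.5% of all genes (13.3% higher and 14.2% lower). With so few genes these counts are descriptions. Without D29H replicate 1, 4 of the 9 were called in the Nrf2 comparison, and without D29H replicate 2 or replicate 3 none was.

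**Figure D3:**
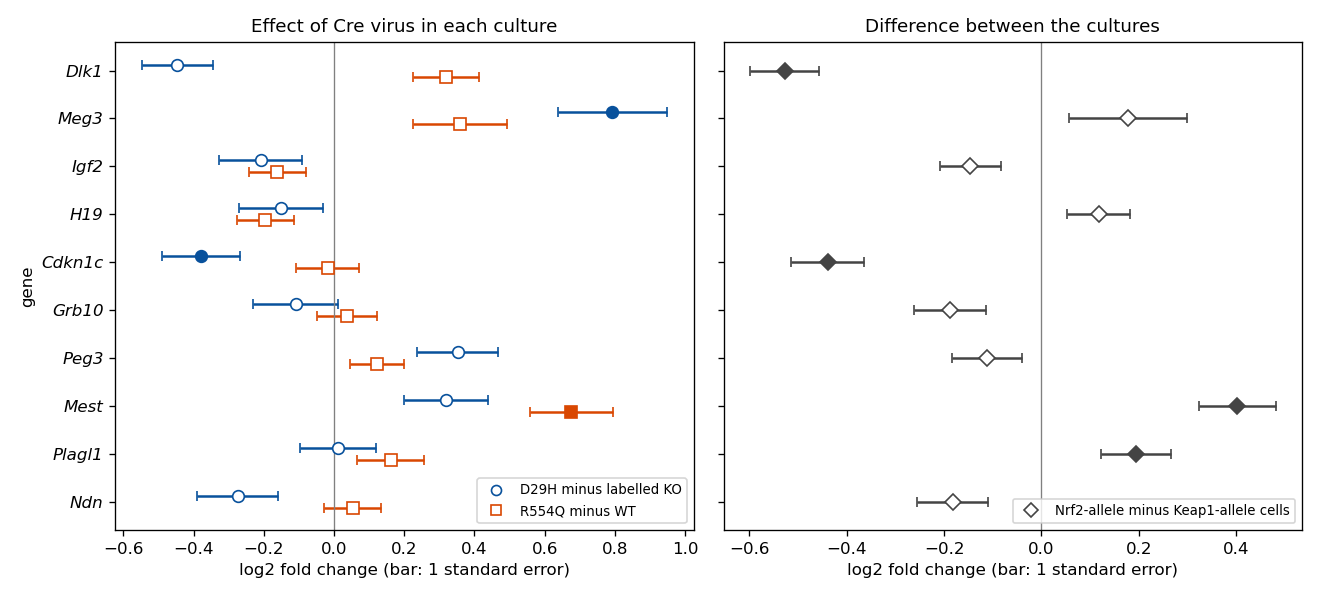
Log2 fold change ± 1 SE of each gene for Cre against empty virus in the Nrf2 and Keap1 cultures (left) and for Nrf2-allele against Keap1-allele cultures (right); filled points have an adjusted p under 0.05, open points do not or are descriptions. Dlk1 lies on opposite sides of 0 in the 2 cultures at left and is among the lowest points at right.

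Whether the 2 Cre effects differed was tested as D29H minus labelled knockout less R554Q minus wild type, in 1 fit of all 12 libraries. No gene of the 9 passed with edgeR (0 of 9, against 0.0270% of 14794 genes called), and DESeq2 and limma also called 0. At an unadjusted p under 0.05 there were 3 of 9, where 11.3% of all genes were. The differences were 0.44 for Meg3 (SE 0.24 and edgeR-adjusted p 0.507), -0.35 for Cdkn1c (SE 0.15 and edgeR-adjusted p 0.388), -0.35 for Mest (SE 0.16 and edgeR-adjusted p 0.419) and -0.32 for Ndn (SE 0.15 and edgeR-adjusted p 0.428). The rise of Meg3 in D29H and that of Mest in R554Q were therefore not shown to differ from the effect in the other culture.

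The Nrf2-allele and Keap1-allele cultures were also compared with each other, pooled over virus. This comparison is the mean of both Nrf2 groups minus the mean of both Keap1 groups. It is balanced over virus and orthogonal to both contrasts that chose the list, so Dlk1 was tested in it. The same libraries enter both, however, and a choice made on them can favour a small spread within groups. The p-value of Dlk1 may thus be too small and is no independent support. Allele, embryo and deposited table cannot be told apart here. Dlk1 was lower in the Nrf2-allele cultures, at 50.8 against 72.8 CPM, a log2 difference of -0.53 (SE 0.07 and edgeR-adjusted p 3.9e-06). That pooled value does not describe both viruses alike for Dlk1: the cultures overlapped with empty virus, at 58.6 ± 5.14 and 65.0 ± 9.32 CPM, and were apart with Cre, at 43.0 ± 2.93 and 80.6 ± 4.11 CPM. Cdkn1c was lower too, at 48.7 against 65.4 CPM (log2 difference -0.44, SE 0.07 and edgeR-adjusted p 7.3e-05). Mest was higher in the Nrf2-allele cultures, at 16.0 against 12.4 CPM (log2 difference 0.40, SE 0.08 and edgeR-adjusted p 0.000363), and Plagl1 was higher at 40.0 against 35.0 CPM (0.19, SE 0.07 and edgeR-adjusted p 0.0398). In all, 4 of 10 genes were called, Dlk1 counted among them. Of all genes 36.0% were called (17.9% higher and 18.1% lower), so the share is near the background. DESeq2 and limma each called 6 of 10. The 6 libraries of one culture overlapped the 6 of the other for 10 of 10 genes, while 13.3% of all genes did not overlap.

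The calls of Dlk1, Cdkn1c and Mest between cultures held in 20 of 20 alternatives each, with log2 differences of -0.57 to -0.47, -0.47 to -0.38 and 0.36 to 0.44. For Dlk1 this covers the pooled value alone, and the alternatives draw on the same libraries that entered its choice. Plagl1 lost its call in 7 of 20, including without D29H replicate 2 or 3, labelled-knockout replicate 3, R554Q replicate 1 and Keap1 wild-type replicate 1 or 3 (log2 difference 0.15 to 0.19). Adjusted p for the genes not called were 0.273 for Meg3, 0.0732 for Igf2, 0.169 for H19, 0.24 for Peg3, 0.0513 for Grb10 and 0.0567 for Ndn in edgeR, with log2 differences of 0.18, -0.15, 0.12, -0.11, -0.19 and -0.18. Meg3, Igf2 and Ndn passed without D29H replicate 1 (7 of 10 genes called), Ndn also without R554Q replicate 2, and Grb10 without labelled-knockout replicate 3.

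Proliferation genes and cell type markers were followed in the same contrasts, and edgeR called 0 of the cell type markers tested in the Nrf2 comparison. Of 12 proliferation genes, 4 were lower in D29H than in labelled knockout (Mcm3, Top2a, Mcm2 and Mcm5), 2 were lower in R554Q (Tyms and Cdk1) and 11 were higher in the Nrf2-allele cultures. Of all genes, 1.28%, 2.40% and 17.9% were called in those directions. The counts in the Nrf2 comparison were 0 without D29H replicate 2 or 3, 2 without labelled-knockout replicate 2 and 7 without D29H replicate 1. In the Keap1 comparison they were 4 without R554Q replicate 3, where 2875 of all 14391 genes were called. They were 0 without wild-type replicate 2 and 1 without any other single library. Median log2 ratios were -0.31 and -0.10 for Cre and 0.59 between the cultures, against 0.00 for all genes in each. Their summed level was 1488 to 1664 CPM with empty and 1242 to 1351 CPM with Cre virus in the Nrf2 cultures, and 1027 to 1097 and 910.1 to 1053 CPM in the Keap1 cultures. Muscle markers summed to 101 to 142 CPM in the Nrf2-allele and 285 to 365 CPM in the Keap1-allele cultures, nearly all from Acta1, with 3 of 6 listed in both tables (Myod1, Myf5 and Pax7 not among them) and the defining gene Myog at or under 0.0915 CPM. Between the cultures the 2 muscle markers tested were called in opposite directions. Acta1 was lower in the Nrf2-allele cultures (-1.53, edgeR-adjusted p 5.5e-14). Des, a muscle filament gene, was higher there (0.31, edgeR-adjusted p 0.00493). In the Keap1 comparison Des was lower in R554Q (-0.45, edgeR-adjusted p 0.0326). That call was lost in 5 of 15 alternatives, among them without R554Q replicate 1 or 2 or wild-type replicate 1 or 3. Macrophage markers, 4 of 5 listed, summed to 94.7 to 129 CPM with empty and 121 to 133 CPM with Cre virus in the Nrf2 cultures, and to 79.1 to 89.7 and 55.3 to 66.8 CPM in the Keap1 cultures. Most of that sum was Lyz2 (43.0 to 103 CPM), which was lower in R554Q (log2 ratio -0.53, edgeR-adjusted p 0.0023), while Ptprc, Cd68 and Csf1r had -0.45, 0.19 and 0.03 there and were not called. Cartilage markers, 6 of 6 listed, summed to 36.4 to 43.2 CPM with empty and 29.6 to 35.6 CPM with Cre virus in the Nrf2 cultures, and to 22.4 to 25.7 and 23.0 to 26.6 CPM in the Keap1 cultures. Fibroblast markers summed to 19151 to 20719 and 16877 to 17611 CPM in the Nrf2 cultures, with empty and Cre virus, and to 14764 to 17088 and 14589 to 15865 CPM in the Keap1 cultures. Between the cultures Lum (1.10), Col3a1 (0.97), Acan (0.89) and Col2a1 (0.69 on the log2 scale) were among the fibroblast and cartilage markers higher in the Nrf2-allele cultures, and Thy1 (-0.19) was the one called lower. That Thy1 call was lost in 5 of 20 alternatives, with the replicate block and without D29H replicate 2, R554Q replicate 1 or wild-type replicate 1 or 3. The macrophage markers were higher too, led by Csf1r (1.31) and Ptprc (1.29). In the Cre comparisons edgeR called 1 fibroblast and 0 cartilage markers: Pdgfra was higher in R554Q (0.36, edgeR-adjusted p 0.0358), a call lost in 5 of 15 alternatives, with the replicate block and without R554Q replicate 1 or any 1 of the wild-type libraries. DESeq2 called 2 fibroblast markers in the Nrf2 comparison, as did edgeR without D29H replicate 1, and some edgeR alternatives called 1 cartilage marker there. Neural markers summed to 11.7 to 36.7 CPM, with Stmn2 and Sox10 lower in the Nrf2-allele cultures. The part of these cells and of proliferation in the values above was not tested, and in bulk RNA fewer cells of a type and less RNA per cell cannot be told apart.

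Beyond the 10, a list of 46 other imprinted genes was followed, of which 36 were tested in the Nrf2 comparison. In D29H 5 were higher and 1 was lower. Those higher were Nap1l5 (log2 ratio 1.04, adjusted p 0.0354), Kcnq1ot1 (0.90, adjusted p 0.0207), Rtl1, Nnat (0.68, adjusted p 0.00614) and Mirg, and Slc38a4, an amino acid transporter, was lower (-0.40, adjusted p 0.0358 in edgeR). The median log2 ratio of the list was 0.12, against 0.00 for all genes. These 6 of 36 compare with 4.75% of all genes called. Kcnq1ot1 was not called after correction for GC content and length, where its adjusted p in edgeR was 0.8. The count was 10 without D29H replicate 1, 1 without D29H replicate 2, 0 without D29H replicate 3 and 3 and 4 without labelled-knockout replicates 2 and 3. In the Keap1 comparison 2 of 37 were higher, Nap1l5 (1.49, adjusted p 0.00329) and Blcap (0.30, adjusted p 0.046 in edgeR), with a median of 0.06. That is 5.41% of the list, below the 6.17% of all genes, and Blcap lost its call in 8 of 15 alternatives. That count was 6 without R554Q replicate 3, where 2875 of all 14391 genes were called. It was 1 without any other single library.

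Nap1l5, a paternally expressed gene of the nucleosome assembly protein family, passed in both comparisons at a low level. It was at 2.29, 1.71 and 2.44 CPM in D29H and at 1.12, 1.05 and 0.915 CPM in labelled knockout. In R554Q it was at 3.06, 2.76 and 2.27 CPM and in Keap1 wild type at 0.995, 0.709 and 1.18 CPM. Every Cre library was thus above every empty-virus library of either culture. Its difference between the comparisons was -0.44 (SE 0.38 and edgeR-adjusted p 0.689). The call in the Nrf2 comparison was lost without D29H replicate 2 or 3 or labelled-knockout replicate 2 or 3. Between the cultures 14 of 37 other imprinted genes were called (37.8%, close to the 36.0% of all genes), 6 higher and 8 lower in the Nrf2-allele cultures. They were led by Dio3 (1.30), Nespas (0.98), Asb4 (-0.92), Nnat (-0.77) and Cpa4 (0.72 on the log2 scale, lost in 4 of 19 alternatives). Levels in the Nrf2-allele and Keap1-allele cultures were low for Nespas (0.873 and 0.435 CPM), Asb4 (0.738 and 1.39 CPM) and Cpa4 (1.46 and 0.891 CPM).

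For the genes that carry or hold back the IGF signal, the medians on the log2 scale were 0.02 in D29H and -0.0057 in R554Q. The 17 genes encode an IGF, receptors, adaptors, IGF-binding proteins, Igf2 mRNA-binding proteins, proteases and inhibitors of these. Of them, 0 passed edgeR's test in D29H against labelled knockout, and 0 with DESeq2 or limma. At an unadjusted p under 0.05 there were 4, where 22.9% of all genes were. Without D29H replicate 1, 3 passed. Of all genes, 4.75% were called there and 6.17% in the Keap1 comparison, against 0% and 11.8% of the list. With 17 genes these shares are descriptions. In R554Q 2 were higher, Igfbp2, a binding protein that holds IGFs (0.36, adjusted p 0.0332), and Irs2, an adaptor of the insulin receptor (0.34, adjusted p 0.0347 in edgeR). Igfbp2 was at 69.5, 74.2 and 68.4 CPM in R554Q and at 48.7, 53.0 and 64.3 CPM in wild type. No IGF gene passed there without R554Q replicate 1 or 2 or wild-type replicate 1 or 2. Without R554Q replicate 3, 4 did, where 2875 of all 14391 genes were called. Igfbp2 and Irs2 also lost their call with the replicate block and with the correction for GC content and length. Between cultures 7 of 17 were called (41.2%, against 36.0% of all genes), 2 higher and 5 lower in the Nrf2-allele cultures, among them Pappa (-0.54) and Stc1 (-0.51), a protease of IGF-binding proteins and an inhibitor of that protease, with Igfbp5 at -0.46, Stc2 at 0.33 and Igfbp3 at -0.31.

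Of 16 Notch and adipocyte differentiation genes, chosen because Dlk1 acts in that setting, 14 were tested, with median log2 ratios of -0.03 in D29H and 0.14 in R554Q. Notch3, a Notch receptor, was higher with Cre virus in both cultures. It was at 31.2, 34.4 and 36.6 CPM in D29H and at 23.1, 26.1 and 23.5 CPM in labelled knockout (log2 ratio 0.49, adjusted p 0.0115 in edgeR). In R554Q it was at 30.4, 33.6 and 31.5 CPM and in Keap1 wild type at 17.6, 17.4 and 20.0 CPM (0.81, adjusted p 4.2e-05). Groups did not overlap in either culture. Cebpd, a regulator of early adipocyte differentiation, was lower in D29H (-0.39, adjusted p 0.04). Cebpb, its relative, was higher in R554Q (0.91, adjusted p 0.000115 in edgeR), as was Notch1 (0.33, adjusted p 0.0289). In D29H the 2 calls became 0 without D29H replicate 2 or 3 and 4 without D29H replicate 1. They became 1 without labelled-knockout replicate 2 or 3. In R554Q the 3 calls became 5 without R554Q replicate 3, where 2875 of all 14391 genes were called. Without any other single Keap1 library they became 2. With all libraries, 2 and 3 of 14 were called, where 4.75% and 6.17% of all genes were. Cebpd lost its call in 6 of 16 alternatives and Notch1 in 8 of 15, including the correction for GC content and length for Notch1. Between the cultures 11 of 14 were called (78.6%, against 36.0% of all genes), led by Heyl (-1.41), Cebpa (0.66), Pparg (-0.64), Notch1 (0.61) and Cebpd (0.61). Heyl was at a low level, with means of 0.667 CPM in the Nrf2-allele and 1.79 CPM in the Keap1-allele cultures. Adipocyte markers summed to 6.86 to 12.4 CPM, 3 of 5 listed in both tables, nearly all from Fabp4.

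A list of 10 genes held those that write, guard or remove DNA methylation. In D29H 4 of 10 were higher than in labelled knockout, where 3.47% of all genes were: Tet1 (log2 ratio 1.38, adjusted p 0.00911), Zfp57 (0.64, adjusted p 0.00633), Tet2 (0.62, adjusted p 0.0129) and Tet3 (0.43, adjusted p 0.032 in edgeR). Tet1 was at a low level, with means of 2.82 CPM in D29H and 1.08 CPM in labelled knockout. The 3 Tet genes encode enzymes that oxidise methylated cytosine, a step towards its removal, and Zfp57 encodes a zinc finger protein that guards methylated imprints. Zfp57 was at 52.0, 81.6 and 74.5 CPM in D29H and at 50.3, 41.3 and 41.3 CPM in labelled knockout. As for Meg3, Peg3 and Rtl1, D29H replicate 1 was the lowest D29H library and close to labelled-knockout replicate 1. The count was 0 without D29H replicate 2 or replicate 3, and the median of the 10 was 0.04. Tet3 was also lost without labelled-knockout replicate 2 and with the correction for GC content and length. In the Keap1 comparison 0 of 10 passed with edgeR, DESeq2 or limma, and 1 had an unadjusted p under 0.05, where 6.17% and 24.2% of all genes did. Between the cultures 7 of 10 were called, all 7 higher in the Nrf2-allele cultures, where 17.9% of all genes were higher, led by Uhrf1 (0.45), Dnmt3b (0.43), Dnmt1 (0.39), Tet2 (0.38) and Tet3 (0.30). Dnmt3b lost that call in 10 of 19 alternatives, DESeq2 among them. In the test of the difference between the comparisons, 0 genes of these 4 lists passed with edgeR, DESeq2 or limma, and 6 other imprinted, 1 IGF, 5 Notch and adipocyte and 3 methylation genes (of 37, 17, 14 and 10) had an unadjusted p under 0.05, where 11.3% of all genes did.

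Genes whose level followed that of Dlk1 most closely were sought by Pearson's r of log2 CPM, centred within each culture, over the 12 libraries and 9211 genes at a mean of 10 CPM or more. Among the closest were Fzd1, a Wnt receptor (r 0.956), Nagpa, an enzyme of lysosomal sorting (0.94), Aplp1, a relative of the amyloid precursor protein (0.937), and Jup, plakoglobin (0.937). Of the 9 other genes of the list, Ndn (0.73) and Cdkn1c (0.71) came closest. Of the 9211 genes, 378 and 460 had an r at least as high as theirs. Igf2, Grb10, Mest, H19 and Plagl1 lay between 0.08 and 0.35. Peg3 (-0.49) and Meg3 (-0.50) were negative, and 11.1% and 10.6% of genes had an r as low or lower. In the Keap1 cultures the log2 ratios of Meg3 (0.36) and Dlk1 (0.32) had the same sign. These values are descriptions over libraries that share depth and culture, and Dlk1's own group differences enter them.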

How the data were processed

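Unnormalised counts of reads for each gene, and FPKM, were deposited in 1 table for the Nrf2 groups and 1 for the Keap1 groups, per the file headers. The deposited p-values, log2 fold changes and mean normalised signal of each group are the authors' own and entered no test. The submitters' processing notes name STAR, DESeq2 and mm10, without versions. Use of strand is not given in the sources used here. All 10 genes overlapped their gene in GENCODE M21, 5 with the same start and end. Libraries came from the RNeasy Plus and NEBNext Ultra kits, per the labels' protocols.

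Counts were tested in R 4.3.3 with edgeR 4.0.16 (filterByExpr, TMM factors, quasi-likelihood test, Benjamini-Hochberg over all genes, adjusted p under 0.05), on 6 libraries for each Cre comparison and on 12 for the others. Each standard error is the fitted log2 ratio divided by the root of the F statistic. Joint scaling of the 12 libraries gave the CPM, shown with the SD of 3. Alternatives were RLE and upper-quartile scaling, other count filters (none, or a mean of 50), DESeq2 1.42.0, limma 3.58.1 with trend, GC and length offsets (lowess span 0.3), a replicate block (by titles and, added later, by column names), 1 fit of 12 libraries, stricter thresholds and leaving out each library. The scripts were tested on simulated data.

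The members and lists were chosen with earlier results of these data known. Named genes are the 10 members, up to 5 called genes per list and comparison by absolute log2 fold change, and the 5 genes most like Dlk1, of which 1 is not reported here; genes of the Dlk1 domain, Copg2, Igf2os and Nqo1 are named beside them. Replicates differed by more than sampling noise (chi-square per degree of freedom 4.66 to 23.2). Depth of 14963004 to 23818477 reads sets the counting error.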

Additional observations from a re-analysis of the deposited data

Results flagged for a closer look

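The difference between the 2 Cre effects on Dlk1 stood out. It was -0.76 on the log2 scale, with every D29H library below every labelled-knockout library and every R554Q library above every Keap1 wild-type library. The difference was not tested, because it is what the list was chosen on. Over 21 alternatives it ran from -0.88 to -0.68.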

How the results depend on the processing

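Over 720 values of single genes under an alternative, 666 counted as kept, 16 lost a call, 25 gained one and 13 changed sign, none of them called. Kept means the same direction and side of the threshold. Dlk1 was not tested in the Nrf2, Keap1 and difference contrasts. Its 16, 15 and 21 values there counted as kept by direction and a shift under the SD within groups. In the Nrf2 comparison the 2 called genes became 1 at an adjusted p under 0.01, at 1.5-fold or more, with upper-quartile scaling, with a mean count of at least 50 and with limma, 3 without a filter and in 1 fit of 12 libraries, and 0 to 4 when 1 library was left out. In the Keap1 comparison the 1 called gene became 2 without a filter, 3 with GC and length offsets and 1 to 2 when 1 library was left out. The 4 called between cultures became 0 at 1.5-fold or more, 5 without a filter, 6 with DESeq2 and with limma, 7 with the offsets and 3 to 7 when 1 library was left out; the count for the difference between the comparisons was 0 throughout. The cause was not tested. Signs changed for Plagl1 in the Nrf2 comparison to -0.0095 and -0.034 without D29H replicates 2 and 3 and to -0.036 and -0.033 without labelled-knockout replicates 1 and 2 (-0.036 to 0.10 over the libraries left out). Grb10 became 0.033 without labelled-knockout replicate 3 (-0.21 to 0.033) and, in the Keap1 comparison, -0.025 without R554Q replicate 3 (-0.025 to 0.088). Cdkn1c in the Keap1 comparison was 0.056 without R554Q replicate 1 and 0.021 without wild-type replicate 3 (-0.071 to 0.056). The difference was 0.061 for Igf2 with the offsets and -0.0070 for H19 without R554Q replicate 3 (-0.0070 to 0.12).

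Replicate numbers in the sample titles did not pair the samples: same-numbered libraries deviated together with r of -0.10, -0.07 and -0.03 (Nrf2) and 0.04, -0.22 and -0.04 (Keap1). With the replicate block the called genes of the list were 2, 1, 0 and 3 in the Nrf2, Keap1, difference and culture tests (Plagl1 had an adjusted p of 0.051 in edgeR), and 484 genes were called in the Keap1 comparison against 872 without it. The deposited column names number the Nrf2 libraries otherwise, matching D29H replicates 2 and 3 with labelled-knockout replicates 1 and 2 (r 0.10 and 0.022). A replicate block by these numbers, chosen after seeing the data and resting on 2 pairs with 1 residual degree of freedom, called 5 genes of the list in the Nrf2 comparison (Meg3 and Peg3 higher, Igf2, Cdkn1c and Ndn lower) and 3941 genes in all, and 0 of the list and 84 in all for the difference. Under it Grb10 changed sign to 0.065 in the Nrf2 comparison and 0.033 in the difference, and Plagl1 to 0.025 in the difference. Of all genes, DESeq2 called 71 for the difference against 4 with edgeR. Groups of 3 libraries and the spread of D29H and of R554Q limit what could be called, and levels near 1 CPM rest on few reads.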
